A study of Homo sapiens with 9 samples.

Results

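This report describes the 5 SNAI and ZEB family genes, SNAI1, SNAI2, SNAI3, ZEB1 and ZEB2, among the 58096 gene entries counted in poly(A) RNA-seq libraries of ALL-SIL. ALL-SIL is a human T-cell acute lymphoblastic leukaemia line that carries an activated TLX1 homeobox gene. The family was selected on a measured value of these libraries, the higher SNAI2 level under the siRNA1 label than under the NTC label, and the other 4 genes were added by family name. Symbols were given to the counted gene IDs through the GENCODE 29 annotation of GRCh38, and all 5 were found.

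The 9 libraries came from cells electroporated with siRNA, 3 labelled TLX1 siRNA1, 3 labelled TLX1 siRNA2 and 3 labelled NTC siRNA, with replicates numbered 1 to 3 under each label. The labels give neither dose nor time after electroporation, and all cells belong to a single line. The labels do not say whether replicates are separate cultures, so p-values measure the spread between these libraries, which may be technical. Between 58305492 and 99524663 counts per library fell in genes. TLX1, the gene the siRNAs target, was at 406.1, 457.5 and 386.8 CPM in replicates 1, 2 and 3 labelled siRNA1, 198.2, 231 and 179.4 CPM in those labelled siRNA2 and 183.7, 167.1 and 183.1 CPM in those labelled NTC, where CPM is the count divided by the library's TMM-scaled size. The level was therefore higher, not lower, under the siRNA1 label (log2 fold change 1.23, SE 0.10, edgeR adjusted p = 0.000449 against NTC), so libraries are named by label and differences are not taken as responses to less TLX1. Whether labels were exchanged between libraries was not tested, and every comparison below holds for the labels as given. The sum of 11 T cell markers lay between 2480 and 2620 CPM under siRNA1, 2230 and 2660 CPM under siRNA2 and 2470 and 2550 CPM under NTC, and all 11 were detected. The sum of 6 epithelial markers did not exceed 0.0877 CPM in any library.

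SNAI and ZEB proteins are zinc-finger repressors of transcription that bind E-boxes, above all the word CAGGTG. SNAI proteins carry an N-terminal SNAG motif that recruits the demethylase KDM1A with its CoREST partners, while ZEB proteins recruit the CTBP corepressors. They are best known for silencing E-cadherin (CDH1) and other epithelial genes during epithelial-mesenchymal transition, and ZEB1 and ZEB2 are held in check by miRNAs of the miR-200 family, whose genes they repress in turn. In lymphoid cells ZEB1 represses the interleukin-2 gene and is needed for thymocyte development in mice, SNAI2 and SNAI3 act in overlapping ways in mouse lymphocyte development, and raised ZEB2 is linked to early T-cell precursor leukaemia.

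ZEB1 was the abundant member of the family and ZEB2 was almost absent. On the TPM scale, which corrects for exon length, ZEB1 averaged 70.9 TPM over the 9 libraries, above 86.8% of the 18554 genes that passed the filter on low counts. SNAI2 averaged 2.16 TPM and SNAI3 1.43 TPM, above 30.6% and 25% of those genes. SNAI1 averaged 0.260 TPM and ZEB2 0.00726 TPM. In each of the 9 libraries ZEB1 was the highest and ZEB2 the lowest of the 5 genes, and SNAI1 stood between SNAI3 and ZEB2. Only the order of SNAI2 and SNAI3 varied: the ratio of SNAI2 to SNAI3 TPM was 1.67, 2.69 and 2.05 in replicates 1, 2 and 3 labelled siRNA1, 0.882, 1.79 and 0.98 in those labelled siRNA2, and 0.879, 1.07 and 0.777 in those labelled NTC. Under the siRNA1 label SNAI2 stood above SNAI3 in every library, whereas under each of the other labels it did so in replicate 2 only.

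**Figure D1:**
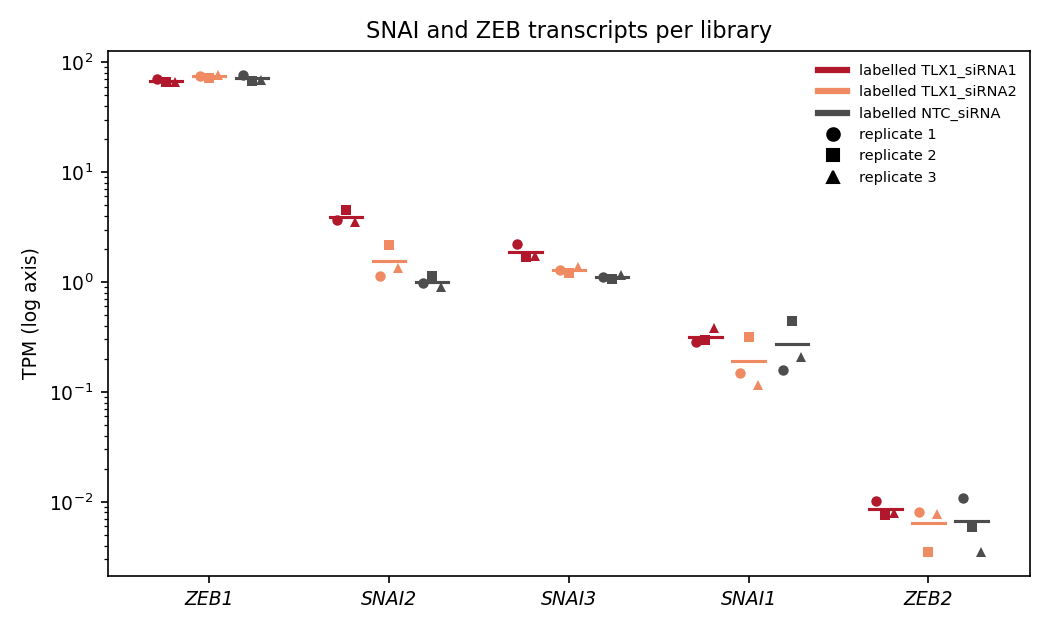
TPM (log axis) of each SNAI and ZEB gene in each library, coloured by siRNA label, with the marker shape giving the replicate number and the bar the mean of 3 libraries. ZEB1 lies between 65.6 and 77.1 TPM, SNAI2 between 0.909 and 4.56 TPM, and ZEB2 at or under 0.0108 TPM.

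ZEB1 (ENSG00000148516.21, chromosome 10 from 31318495 to 31529814, plus strand) had 175, 162 and 150.6 CPM in replicates 1, 2 and 3 labelled siRNA1, 181.2, 176.2 and 170.8 CPM in those labelled siRNA2, and 195, 156.8 and 162.2 CPM in those labelled NTC. The 3 groups overlapped. Behind these values lie between 10285 and 16467 counts per library. ZEB1 holds clusters of zinc fingers at both ends with a homeodomain between them. Against NTC, the log2 fold change was −0.08 (SE 0.10) for siRNA1, a comparison used to choose the family and given here without a test, and 0.04 (SE 0.10, edgeR adjusted p = 1) for siRNA2. Between siRNA1 and siRNA2 it was −0.12 (SE 0.10, edgeR adjusted p = 0.791), with a 95% interval from −0.33 to 0.09. ZEB1 also moved with the replicate number: its mean was 183.7 CPM in the 3 replicate 1 libraries and 163.1 CPM in the other 6 (log2 difference 0.17, SE 0.06, edgeR adjusted p = 0.0293 with the siRNA label in the fit), although the 2 sets of values overlapped. This contrast was one that 21.3% of all tested genes passed. What the replicate number stands for is not given in the sources used here.

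**Figure D2:**
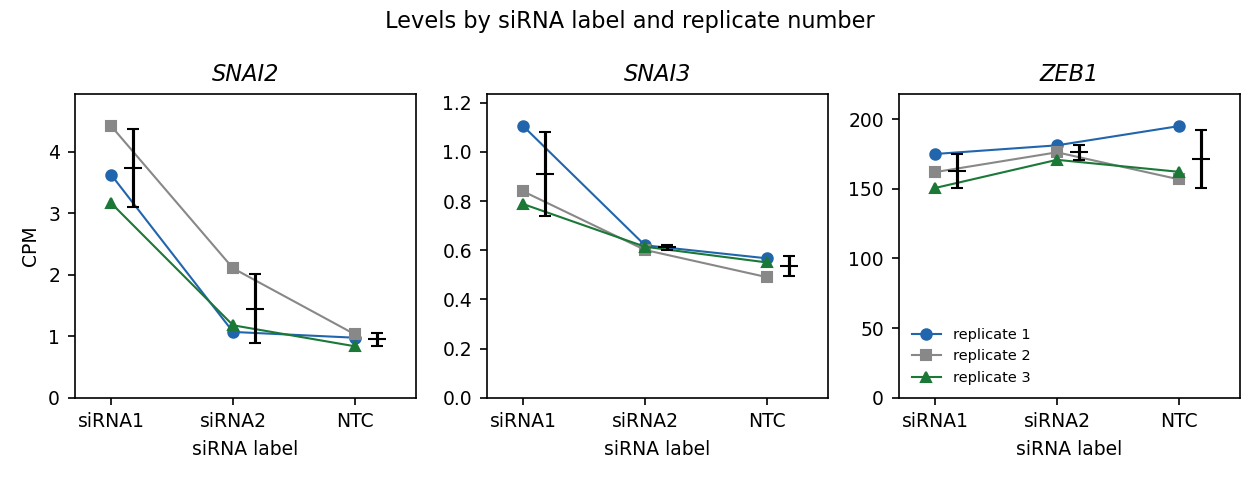
CPM of SNAI2, SNAI3 and ZEB1 in each library, by siRNA label, with lines joining libraries of the same replicate number and black bars giving the mean and SD of 3 libraries. SNAI2 and SNAI3 are highest in the 3 libraries labelled siRNA1, and replicate 1 gives the highest ZEB1 value under every label.

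The RefSeq promoter windows (GRCh38.p14, 250 bases before to 50 after a start) hold 7 windows for ZEB1 and 1 for ZEB2, and the E-box CAGGTG was searched there on both strands. Of all 35116 windows, 20.6% held it. It occurred in 2 of the 7 ZEB1 windows and not in the ZEB2 window, which says only that these letters are absent from that window. The ZEB1 window with 3 matches, at −242, −85 and 34 relative to the start, and the ZEB2 window are shown because these family members differed most in level. Capitals mark CAGGTG or its reverse complement.
ZEB1, chr10:31318966-31319265, plus strand: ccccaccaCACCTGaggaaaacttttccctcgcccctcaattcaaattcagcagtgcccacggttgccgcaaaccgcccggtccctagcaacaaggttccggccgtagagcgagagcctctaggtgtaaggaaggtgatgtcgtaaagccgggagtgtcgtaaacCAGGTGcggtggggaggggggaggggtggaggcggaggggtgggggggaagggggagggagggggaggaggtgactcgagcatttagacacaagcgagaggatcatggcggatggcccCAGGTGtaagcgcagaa
ZEB2, chr2:144520070-144520369, minus strand: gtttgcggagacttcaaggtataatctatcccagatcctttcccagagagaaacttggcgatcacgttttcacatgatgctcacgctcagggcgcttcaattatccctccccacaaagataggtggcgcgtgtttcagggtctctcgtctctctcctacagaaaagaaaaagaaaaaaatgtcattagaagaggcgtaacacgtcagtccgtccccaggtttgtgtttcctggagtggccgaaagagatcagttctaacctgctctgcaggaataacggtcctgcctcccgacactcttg

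The miR-200 miRNAs that pair with ZEB transcripts are shown with their seed, bases 2 to 8, in capitals (RefSeq, GRCh38.p14). They fall into a pair of seed groups that differ at a single base.
hsa-miR-200b-3p: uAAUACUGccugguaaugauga
hsa-miR-200c-3p: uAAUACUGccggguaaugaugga
hsa-miR-429: uAAUACUGucugguaaaaccgu
hsa-miR-200a-3p: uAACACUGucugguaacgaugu
hsa-miR-141-3p: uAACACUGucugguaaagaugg

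The longest 3′ UTR of ZEB1 in GENCODE 29 (2549 bases) held 6 copies of CAGTATT, the reverse complement of the first seed, and 3 of CAGTGTT, the reverse complement of the second. That of ZEB2 (5370 bases) held 5 and 4, that of SNAI2 (1203 bases) 1 and 0, and those of SNAI1 and SNAI3 neither. Among 19062 genes searched, 16% held CAGTATT and 18.3% CAGTGTT at least once. The first and last site of each kind in ZEB1 show the words in capitals with 10 bases on either side (GRCh38, plus strand).
ZEB1, chr10:31527623-31527649: tttatcttatCAGTATTatcactctta
ZEB1, chr10:31529218-31529244: tcatcattatCAGTATTttctttggaa
ZEB1, chr10:31528036-31528062: tcatcagaatCAGTGTTtgtgattgtg
ZEB1, chr10:31529027-31529053: cttctataaaCAGTGTTgggaacaatg

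Few counts fell on the miR-200 genes in these libraries. MIR200CHG, the host of miR-200c and miR-141, had 9 counts over all 9 libraries together, MIR429 had 2 and MIR200A 1, while MIR200B, MIR200C, MIR141 and MIR205HG had 0. Mature miRNAs and their short hairpins are not measured in poly(A) libraries. Low counts of the hairpin entries therefore do not show that the miRNAs are absent. Of the 17 named factors that oppose SNAI and ZEB proteins in epithelia, 3 passed the filter on low counts and none of these 3 passed the edgeR test in any of the 3 label comparisons. The highest was GRHL1, a grainyhead transcription factor, at 1.21 TPM, followed by OVOL3 at 0.509 TPM. ESRP1 and ESRP2, epithelial splicing regulators that ZEB1 represses, averaged 0.0103 and 0.125 TPM.

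SNAI2, known as Slug, was chosen for its difference between labels, which favours a wide range over the 9 libraries. Of SNAI2, SNAI3 and ZEB1, it had the largest ratio of highest to lowest CPM. SNAI2 (ENSG00000019549.8) lies on chromosome 8 from 48917604 to 48921740 on the minus strand. Its level was 3.62, 4.42 and 3.16 CPM in replicates 1, 2 and 3 labelled siRNA1, 1.07, 2.11 and 1.18 CPM in those labelled siRNA2, and 0.977, 1.03 and 0.838 CPM in those labelled NTC. The counts behind these were 341, 405 and 301 under siRNA1, 76, 168 and 71 under siRNA2, and 62, 103 and 70 under NTC. All 3 libraries labelled siRNA1 stood above the other 6, and replicate 2 was the highest library under every label. Groups without overlap were seen in 15.8% of all tested genes for siRNA1 against NTC and in 14.4% for siRNA1 against siRNA2. For SNAI2 nothing is read from this split, since its level under siRNA1 chose the family. As a description of the value that chose the family, SNAI2 averaged 3.73 ± 0.634 CPM under siRNA1 and 0.949 ± 0.0999 CPM under NTC (SD, n = 3 each), a 3.93-fold difference (log2 1.97, SE 0.25). Within replicate numbers 1, 2 and 3 that difference was 1.87, 2.07 and 1.89 on the log2 scale. Against siRNA2, at 1.45 ± 0.568 CPM (SD, n = 3), SNAI2 under siRNA1 was 2.56-fold higher (log2 1.35, SE 0.25), again without a test because the siRNA1 libraries chose the gene, and the log2 value was 1.73 without replicate 2 labelled siRNA2.

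The siRNA2 and NTC libraries gave a smaller SNAI2 difference that did not pass the test. All 3 values under siRNA2 lay above all 3 under NTC, a split seen in 5.58% of tested genes, and the fold difference was 1.54 (log2 0.62, SE 0.26, unadjusted p = 0.0332 and adjusted p = 1 by edgeR quasi-likelihood, 3 libraries each). With the replicate number as a block the unadjusted p was 0.00147 and the edgeR adjusted p 0.165. Most of the difference came with 1 library: the log2 differences within replicate numbers 1, 2 and 3 were 0.13, 1.01 and 0.48, and without replicate 2 labelled siRNA2 the log2 fold change was 0.24. Replicate 2 labelled siRNA2 also had the highest TLX1 level of its group, at 231 CPM, and the part of TLX1 in the SNAI2 value was not tested. This comparison shares its NTC libraries with the one that chose SNAI2, and low NTC values would favour that choice. The p-values and the split of SNAI2 here are therefore a description and not an independent test. In the comparison of siRNA2 with NTC none of SNAI2, SNAI3 and ZEB1 passed, against 0% of all 18554 genes. There 392 genes had an unadjusted p under 0.05 by edgeR and 4 were called by DESeq2. With the block none of these 3 passed, against 0.151% of all genes.

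TLX1 was among the genes whose pattern was most like that of SNAI2. Over the 9 libraries and 12553 other genes with a mean of at least 1 CPM, the 5 highest Pearson correlations of log2 CPM with SNAI2 were those of CXCR3 (0.973), TLX1 (0.967), CTNNA1 (0.965), PLAU (0.964) and ST3GAL1 (0.963). CXCR3 is a chemokine receptor, CTNNA1 encodes alpha-catenin, PLAU the urokinase plasminogen activator and ST3GAL1 a sialyltransferase. The 9 points share siRNA labels and replicate numbers and SNAI2 was chosen for its label difference, so the values only describe the likeness. Of the 4 protein-coding neighbours of SNAI2, EFCAB1, PPDPFL and SNTG1 had 0 counts in all 9 libraries, while UBE2V2, the second gene on the EFCAB1 side, averaged 149 CPM.

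SNAI3 ran in the same order of labels as SNAI2 at a lower level and with smaller differences. SNAI3 (ENSG00000185669.5, chromosome 16 from 88677682 to 88686493, minus strand) encodes the third Snail protein, first studied in mouse muscle and thymus. Its level was 1.11, 0.840 and 0.788 CPM in replicates 1, 2 and 3 labelled siRNA1, 0.620, 0.601 and 0.614 CPM in those labelled siRNA2, and 0.567, 0.491 and 0.551 CPM in those labelled NTC. The 3 groups did not overlap, and replicate 1 under siRNA1 was the highest library. Against NTC, in the comparison that chose the family, SNAI3 was 1.70-fold higher under siRNA1 (log2 0.77, SE 0.20), which is given without a test, and the log2 value was 0.60 without replicate 1 labelled siRNA1. In that comparison 15.8% of all tested genes had groups that did not overlap, 1.28% passed at an adjusted p under 0.05 and 11.4% passed with the replicate block, and nothing is read from the family's share there. Between siRNA1 and siRNA2 SNAI3 was 1.49-fold higher (log2 0.57, SE 0.20), which did not pass (edgeR adjusted p = 0.301, and 0.0514 with the replicate block). Groups without overlap there were seen in 14.4% of all genes, while 1.08% passed, or 10.6% with the block. Neither SNAI3 nor ZEB1 passed. Between siRNA2 and NTC the log2 fold change of SNAI3 was 0.19 (SE 0.21, edgeR adjusted p = 1).

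**Figure D3:**
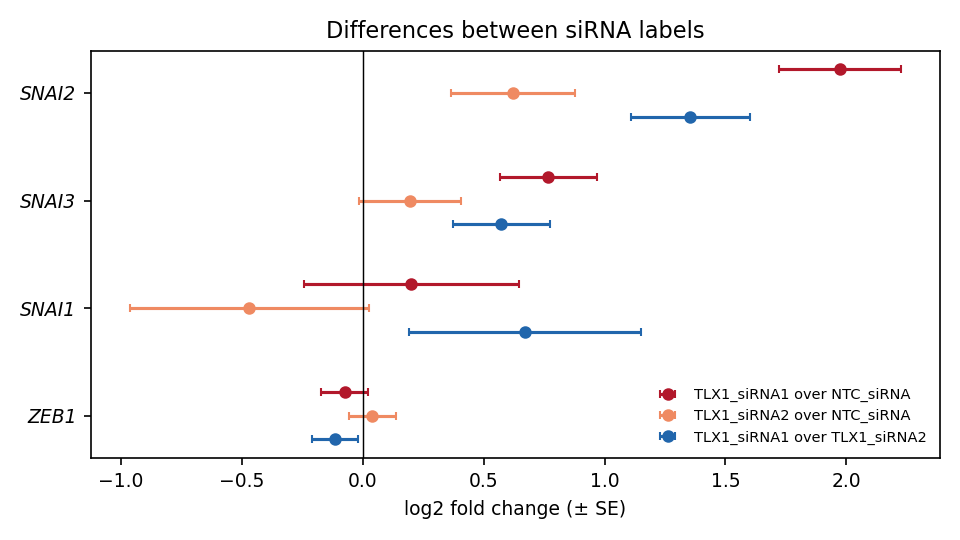
Log2 fold changes (points, with SE as bars) of the 4 SNAI and ZEB genes that passed the filter, in the 3 comparisons of siRNA labels. SNAI2, whose level under siRNA1 chose the family, is at 1.97 and 0.62 for siRNA1 and siRNA2 against NTC. It is at 1.35 for siRNA1 against siRNA2, and has the highest value in each comparison. The 3 points of ZEB1 lie between −0.12 and 0.04.

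SNAI3 overlaps an antisense gene, and the library kit does not mark strand. SNAI3-AS1, which runs through SNAI3 on the opposite strand, averaged 2.22 ± 0.334 CPM under siRNA1, 1.56 ± 0.136 CPM under siRNA2 and 1.79 ± 0.378 CPM under NTC (SD, n = 3 each). Between siRNA1 and siRNA2 its log2 fold change was 0.51 (SE 0.19, edgeR adjusted p = 0.359, and 0.034 with the replicate block). Reads from the 2 overlapping genes cannot be told apart where they share bases. Counting each strand separately and summing added 7.75% to the SNAI3 counts and 3.6% to those of ZEB1, which overlaps ZEB1-AS1 at its start, and added none to SNAI1, SNAI2 or ZEB2. ZEB1-AS1 averaged 25.3 CPM, with log2 fold changes of 0.04 (edgeR adjusted p = 0.977) for siRNA1 against NTC and 0.15 (edgeR adjusted p = 0.895) for siRNA1 against siRNA2. Among the genes most like SNAI3 over the 9 libraries were SAMSN1 (0.967), REG4 (0.962) and IFNL1 (0.957), as Pearson correlations among 12554 genes. The libraries share siRNA labels and replicate numbers, so these values only describe the likeness.

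SNAI1, known as Snail, was near the floor of detection. SNAI1 (ENSG00000124216.3, chromosome 20 from 49982999 to 49988886, plus strand) had 13, 13 and 16 counts in replicates 1, 2 and 3 labelled siRNA1, 5, 12 and 3 in those labelled siRNA2, and 5, 20 and 8 in those labelled NTC. The groups overlapped, and the highest value of all was that of replicate 2 labelled NTC. SNAI1 reached the filter's level of 0.12 CPM in 3 libraries labelled siRNA1 and in 1 each under siRNA2 and NTC, so it passed the filter mainly through the siRNA1 libraries. For that reason its values are given without a test. Its log2 fold change was −0.47 (SE 0.49) for siRNA2 against NTC and 0.67 (SE 0.48) for siRNA1 against siRNA2, which leaving out single libraries moved between 0.41 and 1.28. For siRNA1 against NTC it was 0.20 (SE 0.45), and leaving out single libraries moved it between −0.01 and 0.75, so no difference is read from it. The 5 genes most like it were TRADD (0.964), FAM173A (0.963), CYSRT1 (0.944), ZNF707 (0.935) and KLF13 (0.930). These were the highest Pearson correlations among 12554 genes. With between 3 and 20 counts of SNAI1 per library, they only describe the likeness.

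ZEB2 gave between 2 and 7 counts per library. ZEB2 (ENSG00000169554.17, chromosome 2 from 144364364 to 144524583, minus strand) had 7, 5 and 5 counts in replicates 1, 2 and 3 labelled siRNA1, 4, 2 and 3 in those labelled siRNA2, and 5, 4 and 2 in those labelled NTC. These 37 counts in all lie close to a floor of 3 counts per library, so no fold is given, and ZEB2 did not pass the filter in any library. Its antisense gene ZEB2-AS1 had 1 count in all. Of its neighbours, GTDC1 averaged 0.061 CPM, ARHGAP15 143 CPM, and ORC4 and ACVR2A, 30.4 and 0.268 CPM.

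Of the other protein-coding neighbours of the family, KIF5B was the only one past the test in a label comparison in the fit without the block. KIF5B, a kinesin heavy chain gene that lies 479196 bases beyond ZEB1, was lower under siRNA1, at 147 ± 15.5 CPM, than under siRNA2, at 206.4 ± 16.8 CPM (SD, n = 3 each; log2 fold change −0.49, SE 0.10, edgeR adjusted p = 0.0444). In that comparison 1.08% of all genes passed. The KIF5B call was lost in 8 of the 9 fits that left out 1 library. RNF114, SPATA2 and UBE2V1 beside SNAI1, ZNF438 and ARHGAP12 beside ZEB1, and CYBA, MVD, RNF166 and CTU2 beside SNAI3, did not pass in any label comparison of that fit. Values of these neighbours with the replicate block are not given here. LYZL2 beside ZEB1 and the readthrough gene TMEM189-UBE2V1 beside SNAI1 had 0 counts and were not tested. The genes most like ZEB1 were TAF5 (0.980), FAM104B (0.978), TERF1 (0.978), MCUR1 (0.976) and SKA3 (0.970), where TAF5 encodes a subunit of the general factor TFIID and TERF1 a telomere protein. For ZEB1 too the correlations only describe the likeness.

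The corepressors that SNAI and ZEB proteins recruit were nearly all expressed, and none of the 24 passed a label comparison without the block. Their median level was 61.5 TPM, and 21 of 24 averaged at least 10 TPM. CHD4 and RBBP4, subunits of the NuRD remodelling complex, averaged 162.9 and 174 TPM. HDAC1, a histone deacetylase, averaged 371 TPM, KDM1A 180.3 TPM and EZH2, the PRC2 methyltransferase, 217.7 TPM. The ZEB partner CTBP1 averaged 58.5 TPM, whereas CTBP2 was near absent at 0.0918 TPM. With the replicate block 4 of 24 passed as lower under siRNA1 than under NTC, against 11.4% of all genes, and these 4 are named after their values were seen: KDM1A (log2 −0.28), PRMT5 (−0.36), AJUBA (−0.34) and EED (−0.24). The highest of their 4 block adjusted p-values by edgeR was 0.0326, that of EED. The median log2 fold change of the 24 was −0.05 for siRNA1 against NTC, beside 0.01 over all tested genes.

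Genes that SNAI and ZEB proteins silence in epithelia were low under every label. Of 28 epithelial targets, 26 were under 1 TPM in every library and 6 had 0 counts, among them the keratins KRT18 and KRT19. CDH1 had 22 counts over all 9 libraries, EPCAM 1 and OCLN, a tight junction protein, 576. MUC1, a mucin, averaged 1.38 TPM. None of the 6 tested targets passed in a label comparison, with or without the block, and their median log2 fold change was 0.02 for siRNA1 against NTC. By sequence, 13 of the 17 epithelial targets with a RefSeq promoter window (76.5%) held CAGGTG, beside 24.1% of all 27305 genes with a window, a description of a list named as targets of these factors.

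Mesenchymal genes split into a few abundant ones and many near the floor. Of 22, 5 averaged at least 10 TPM, namely S100A4 (615 TPM), VIM, the intermediate filament vimentin (182.8 TPM), ITGB1 (151 TPM), CDH2, N-cadherin (82.8 TPM), and ITGA5 (29.1 TPM), while 15 were under 1 TPM in every library. Vimentin and the integrins are also ordinary lymphocyte genes. TWIST1 and TWIST2, other transcription factors of epithelial-mesenchymal transition, had 1 count each. None of the 12 tested passed without the block. With it S100A4, named after its values were seen, was higher under siRNA1, at 209 CPM on average, than under NTC, at 160.1 CPM (log2 0.39, SE 0.06, edgeR block adjusted p = 9.49e-05), and its groups overlapped. S100A4 was the only 1 of the 12 that passed there with the block, where 11.4% of all genes passed. Of 8 fibroblast markers DCN, LUM and PDGFRA had 0 counts, and the marker sum lay between 12.8 and 20.1 CPM under siRNA1, 16.2 and 22.1 CPM under siRNA2 and 16.8 and 24.6 CPM under NTC. Nearly all of that sum was PDGFRB, a growth factor receptor gene, at 19.2 CPM on average, while the other 7 markers were under 1 CPM in every library. PDGFRB did not pass for siRNA1 against NTC (log2 −0.32, edgeR adjusted p = 0.632, and 0.00352 with the block). In bulk RNA fewer cells of a type and less RNA per cell cannot be told apart.

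**Figure D4:**
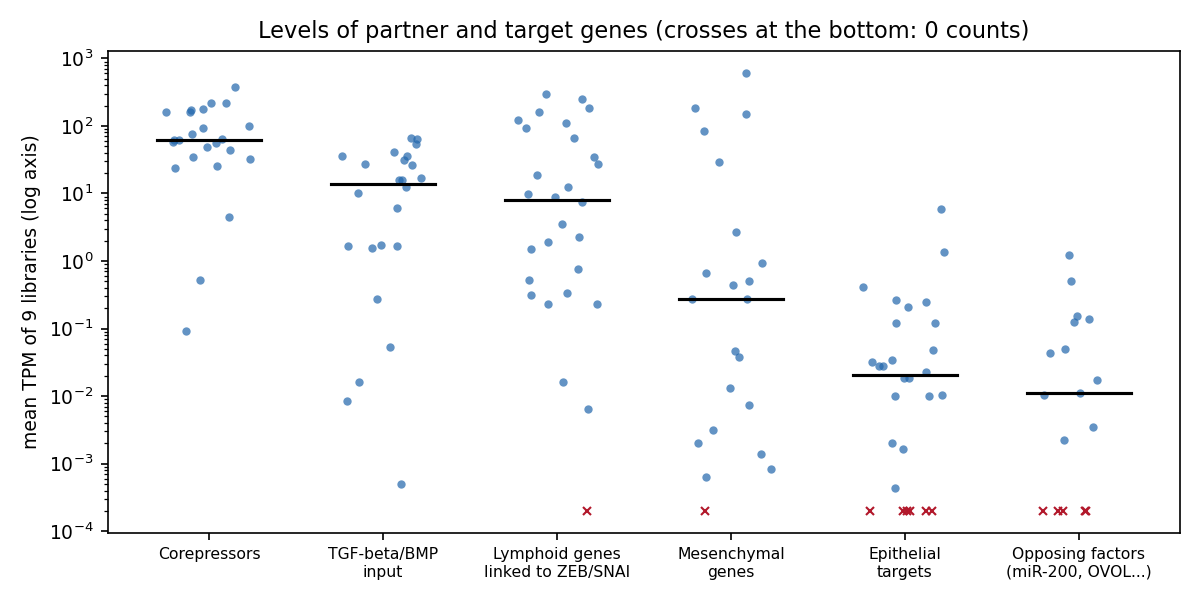
Mean TPM over 9 libraries (log axis) of the genes of 6 lists, 1 point per gene, with the median as a bar and crosses for genes with 0 counts. Corepressors have a median of 61.5 TPM, epithelial targets 0.0208 TPM and the opposing factors 0.0112 TPM.

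Of the signals that induce SNAI and ZEB genes, the inhibitor SMAD6 was the one that passed the test. SMAD6, which blocks BMP receptor signalling, averaged 24.1 ± 1.45 CPM under siRNA1, 42.5 ± 4.99 CPM under siRNA2 and 44.7 ± 4.76 CPM under NTC (SD, n = 3 each). SMAD6 fell under siRNA1 against NTC (log2 −0.89, SE 0.11, edgeR adjusted p = 0.00233) and against siRNA2 (log2 −0.82, SE 0.11, edgeR adjusted p = 0.00462), comparisons that share the siRNA1 libraries. It was the only one of 20 tested TGF-beta and BMP genes past the test in either, beside 1.28% of all genes against NTC and 1.08% against siRNA2. With the block 3 were higher and 3 lower against NTC, beside 11.4% of all genes. The receptors TGFBR1 and TGFBR2 averaged 35.4 and 35.8 TPM and TGFB1 63.6 TPM, while SMAD7, the other inhibitory SMAD, had 17 counts in all.

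Among enzymes that control the stability of SNAI and ZEB proteins, 1 of 22 tested passed for siRNA1 against siRNA2, in a comparison that 1.08% of all genes passed. BTRC, the F-box protein that marks phosphorylated SNAI1 for destruction, fell to 20.7 ± 0.418 CPM under siRNA1, against 28.5 ± 0.313 CPM under siRNA2 (SD, n = 3 each; log2 −0.46, SE 0.08, edgeR adjusted p = 0.0194). The call was lost in 5 of the 9 fits that left out 1 library. Against NTC, at 25.9 ± 1.27 CPM, the log2 fold change was −0.32 (edgeR adjusted p = 0.0903, and 0.00242 with the block). With the block 1 gene of the list was higher and 3 were lower under siRNA1 than under NTC, where 11.4% of all genes passed. GSK3B, a kinase that phosphorylates SNAI1 for this route, averaged 67.4 TPM.

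Lymphoid genes linked to the family moved in both directions, and most did not pass. Of 25 tested, 2 rose and 1 fell under siRNA1 against NTC, where 1.28% of all genes passed. With the block 2 were higher and 5 lower, where 11.4% of all genes passed. IL2RB, a chain of the interleukin-2 and interleukin-15 receptors, rose to 59.7 ± 3.65 CPM under siRNA1, against 36.5 ± 1.67 CPM under NTC (SD, n = 3 each; log2 0.71, SE 0.10, edgeR adjusted p = 0.00468). RUNX3, a T cell transcription factor, rose by 0.61 on the log2 scale (SE 0.12, edgeR adjusted p = 0.034), a call lost in 6 of the 9 fits that left out 1 library. IL7R fell to 7.55 ± 1.41 CPM under siRNA1, against 19.0 ± 1.94 CPM under NTC (SD, n = 3 each; log2 −1.33, SE 0.14, edgeR adjusted p = 0.00134). IL2, repressed by ZEB1 in T cells, had 0 counts in all 9 libraries. BBC3, a p53 target that SNAI2 represses in mouse blood progenitors, had 155 counts in all and KIT 8. Of the 11 T cell markers, 10 did not pass for siRNA1 against NTC, and the median log2 fold change of the 11 was −0.01. With the block 1 was higher and 4 were lower. The one that passed, CD3G, fell (log2 −0.44, SE 0.08, edgeR adjusted p = 0.0172), a call lost in 5 of the 9 fits that left out 1 library.

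E-box binding activators were present beside the repressors. TCF3 and TCF12, the E proteins, averaged 210.3 and 112.3 TPM, and TCF4 0.0186 TPM. None of the 8 tested E proteins, ID inhibitors and related factors passed without the block. With it ID2 (log2 0.38) and ID3 (log2 0.50), which keep E proteins off DNA, were higher under siRNA1 than under NTC, at edgeR block adjusted p = 0.0195 and 9.06e-06. In that comparison 11.4% of all genes passed with the block, and the groups of CPM values overlapped for both ID genes. Of 5 further genes with a SNAG motif, GFI1, a repressor needed in T cell development, was the only one tested and averaged 107.4 TPM. Its log2 fold change was −0.27 (SE 0.08) for siRNA1 against NTC, with an edgeR adjusted p of 0.18, and 0.00631 with the block. For siRNA1 against NTC the median log2 fold change was −0.09 over the tested TGF-beta and BMP genes, −0.04 over the stability enzymes, −0.03 over the lymphoid genes, −0.04 over the E-box binding factors and 0.18 over the mesenchymal genes, beside 0.01 over all tested genes. None of these lists had a member past the test for siRNA2 against NTC, with or without the block. For siRNA1 against siRNA2 the block gave, as higher and lower, 0 and 3 corepressors, 1 and 3 stability enzymes, 1 and 4 TGF-beta and BMP genes, 2 and 5 lymphoid genes, 2 and 4 T cell markers, 1 and 0 mesenchymal genes and 1 and 0 E-box binding factors, where 10.6% of all genes passed.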

How the data were processed

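Poly(A) RNA of ALL-SIL cells was sequenced with an unstranded kit, per the labels' protocols. The authors deposited raw counts of reads per gene on GRCh38, per the submitters' processing notes, in a 3-column layout without regard to strand and by strand (aligner and annotation release not given in the sources used here). Unstranded counts were used after leaving out summary lines, which held 22.4% to 24.5% of reads. Of 58096 gene IDs, 57447 matched GENCODE 29. Genes were filtered with filterByExpr (minimum count 10, minimum total 15), scaled by TMM and tested in a single edgeR 4.0.16 quasi-likelihood fit of all 9 libraries (R 4.3.3), with Benjamini-Hochberg adjustment over 18554 genes and a threshold of 0.05. The fit was tested on simulated data. TPM used the union of annotated exons, which is long for ZEB2 (25058 bases) and lowers its TPM. Alternatives were DESeq2 1.42.0, limma-voom 3.58.1, other scalings and filters, strand sums, left-out libraries and the replicate number as a block.

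Same-numbered libraries deviated together from their group means (correlations 0.383 to 0.623 over genes, against at most 0.0693 for different numbers), so the numbers pair the libraries in the data, although the labels do not say what a number stands for. Blocked values are given for the members and lists where the block changed a call. The members and lists were chosen with earlier results of these data known. Named were the 5 members, TLX1, up to 4 genes per list with the largest change among those past the test (otherwise up to 2 with the highest CPM), the 5 genes most like each member and the nearest 2 protein-coding genes on each side; other genes named were chosen after their values were seen or for their known role. A few genes that this rule names are not reported here. The 95% interval comes from the edgeR fit and includes the spread between libraries, while the floor of 3 counts reflects counting only.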

Additional observations from a re-analysis of the deposited data

How the results depend on the processing

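Under a fit with a replicate block, 2117 genes passed for siRNA1 against NTC, 28 for siRNA2 against NTC and 1958 for siRNA1 against siRNA2, beside 238, 0 and 201 without it. None of SNAI2, SNAI3 and ZEB1 changed its call under the block in the label comparisons where it was tested. Without a filter on low counts 590, 15 and 557 genes passed, and with DESeq2 527, 4 and 465. Fitting only the 6 libraries compared gave 117 for siRNA1 against siRNA2. Without the 3 replicate 1 libraries 75 passed for siRNA1 against NTC and 33 for siRNA1 against siRNA2. Leaving out 1 library gave between 103 and 253, 0 and 0, and 72 and 185 genes. For the family, the log2 fold change for siRNA1 against NTC then lay between 0.60 and 0.86 for SNAI3 and between −0.010 and 0.752 for SNAI1, and SNAI2 for siRNA1 against siRNA2 lay between 1.17 and 1.73. SNAI1 turned sign for siRNA2 against NTC without NTC replicate 2 (0.08). ZEB1 turned sign without NTC replicate 1 for siRNA1 against NTC (0.03) and without NTC replicate 2 for siRNA2 against NTC (−0.02). With the block and without replicate 2 labelled siRNA2, chosen after seeing the data, SNAI2 for siRNA2 against NTC was 0.36 (edgeR adjusted p = 0.592). The cause of these shifts was not tested. The filter of 1 CPM in 3 libraries removed SNAI1 and SNAI3, and the fit of siRNA2 and NTC alone removed SNAI1, so these gave no value. With 3 libraries per label and under 21 counts each, SNAI1 and ZEB2 are limited by depth.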
